A study of Mus musculus with 14 samples.

Results

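The arrays described here follow the response of mouse B16F10 melanoma to transferred cytotoxic T lymphocytes (CTL) as it aged from day 3 to day 7, in the arms whose interferon gamma (IFNγ) was not blocked. They were chosen by label: tumours given CTL alone and tumours given CTL with control rat IgG, 1 array of each on day 3 and on day 7, which makes 4 of the 14 arrays of the series. B16F10 is an established pigmented melanoma line of the C57BL/6 strain. Every mouse was a C57BL/6 animal carrying a B16F10 tumour, and tumours were taken on days counted from the CTL transfer. The CTL were activated in culture, recognise the melanocyte antigen gp100 and carry the CD90.1 marker. In the CTL, IgG arm the control antibody was injected into the peritoneum on days 0 and 2, and the arm with anti-IFNγ antibody was dosed on the same days. Untreated tumours received no CTL. Each array held RNA pooled from 4 tumours (CTL, untreated) or 3 tumours (both antibody arms), so an array is 1 pool, and p-values measure the spread between pools of the 2 CTL arms. The labels do not say which of the measured transcripts came from host, tumour or transferred cells.

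A level below is log2 of the processed signal minus the array's 75th percentile. A response is an array's level minus that of the untreated array of the same day, and a direct change is day 7 minus day 3 within an arm. Both are differences on the log2 scale, and the ± after a fitted value is its standard error. Each day was hybridised on a slide of its own, so day and slide cannot be told apart in a direct change. The untreated, CTL, CTL with IgG and anti-IFNγ arrays of a day shared that slide, and a net change, the day 7 response minus the day 3 response, compares within slides. The arrays had 48.9% to 59.7% of spots well above background, the lowest being CTL on day 5, and no spot was saturated. The untreated array of day 7 was the highest in erythroid genes: its summed level of 5 of them was 1098 times the 75th-percentile signal. Untreated tumours had 106 on day 3 and 454 on day 5. The CTL and CTL, IgG arms had 70.0 and 133 on day 7. The anti-IFNγ array of day 7 also stood high at 513. The CTL, IgG array of day 7 stood apart in 10 neutrophil genes, whose summed level was 54.9 there and 12.5 or less on the other arrays of days 3, 5 and 7. Dct, a pigment enzyme gene that defines melanocytes, had levels between 9.14 and 9.72 on all 12 arrays of days 3, 5 and 7.

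IFNγ is a main cytokine that activated CTL release in a tumour. It binds a receptor made of Ifngr1 and Ifngr2, activates the JAK kinases and induces the factor IRF1. Its targets include chemokines, GTPases of cell-autonomous immunity, the immunoproteasome and MHC class I, and, through the transactivator CIITA, MHC class II. SOCS1 is an induced inhibitor of the same pathway. CTL themselves kill through perforin and granzymes, and monocytes drawn into the tumour become macrophages.

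Between day 3 and day 7 genes that CTL had raised on day 3 came down in both arms, and the IFNγ-induced genes had the lowest median change of the gene lists measured, at -2.79. Of 17376 genes tested, 290 (1.67%) fell and 44 (0.253%) rose directly, by limma with Benjamini-Hochberg adjusted p under 0.05 and 2 arrays a side. On day 3 CTL arms exceeded untreated tumours in 1049 genes (6.04%) and were below them in 703 (4.05%). On day 5 the counts were 1227 (7.06%) and 928 (5.34%), and on day 7 they were 426 (2.45%) and 173 (0.996%). The number of genes apart from untreated tumours was thus largest on day 5. Each day's counts rest on 1 untreated array. With the untreated arrays of days 3 and 5 in place of that of day 7, the day 7 counts were 1279 and 544. Of the 290 genes that fell, 270 had been called higher than untreated on day 3. In 284 the day 5 mean of the arms lay between days 3 and 7. Choosing genes for a wide gap between those days favours this, and the day 5 arrays enter the spread used in the test. The median direct change of the 290 genes was -1.73, against 0.09 in untreated tumours and -0.30 in the anti-IFNγ arm. Over the 1049 genes called higher on day 3, the median response was 2.33 on day 3, 2.15 on day 5 and 1.19 on day 7. Of these, 401 still passed on day 7. The day 3 calls and the direct changes share the day 3 arrays. With any 1 of the 6 CTL and CTL, IgG arrays of days 3, 5 and 7 left out, the fit kept 1 residual degree of freedom and no gene passed, while all 290 lower and all 44 higher genes kept their direction in each of those fits. Those genes had been called from these same arrays, so their kept direction is no further evidence for the calls. The direct change does not use the day 5 levels, so leaving out a day 5 array could not alter it. Under normexp background correction 56 genes fell and none rose. With genes well above background on at least 6 of 9 arrays, 707 fell and 502 rose, so the balance of falls and rises depends on that filter.

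The fall could be read in arrays that had no part in choosing the genes. The 1372 genes that were at least 1 above untreated on day 3 in the CTL, IgG arm had a median direct change of -0.67 in the CTL arm, where 74.1% were below 0 against 43.2% of all genes. The 1669 genes chosen in the CTL arm had a median direct change of -0.26 in the CTL, IgG arm, where 62.3% were below 0 against 38.6% of all genes. In the anti-IFNγ arm, on the same slides, the same gene sets had median direct changes of -0.40 and -0.37. Across all genes, which are not independent replicates, the direct changes of the 2 arms had a Pearson correlation of 0.491, and the arms share the 2 slides.

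**Figure D1:**
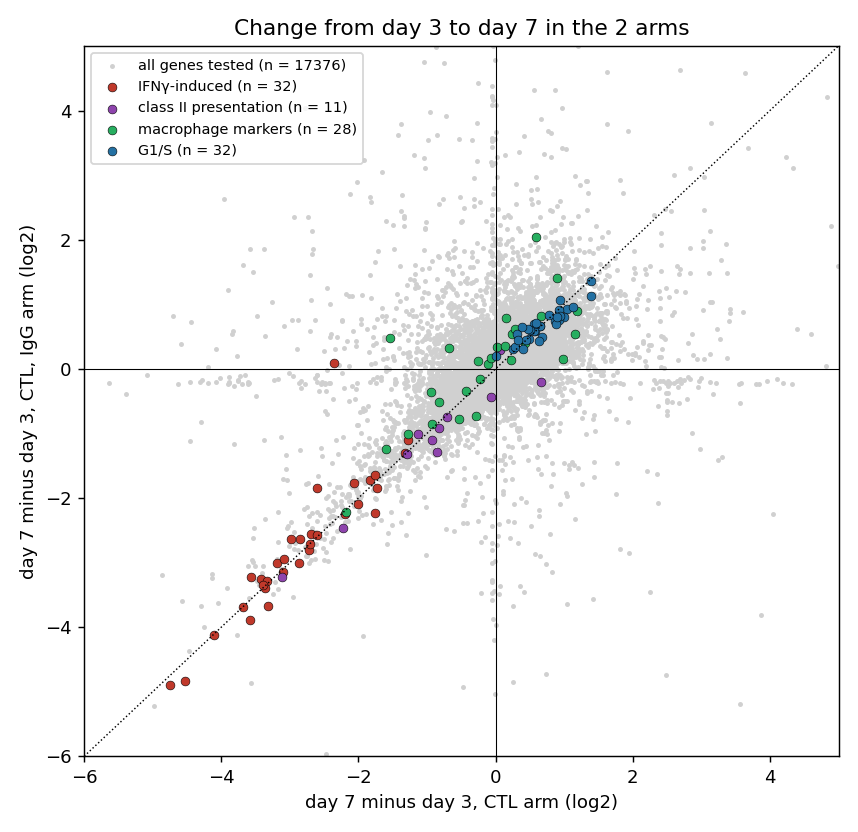
Direct change from day 3 to day 7 (log2) in the CTL arm (x) and in the CTL, IgG arm (y), 1 point a gene, with a dotted line of equality. The IFNγ-induced genes, with a median of -2.79, lie near the line at the lower left, the G1/S genes lie above 0 in both arms, and macrophage markers, with a median of 0.02, lie around the origin. A few genes lie beyond the axes and are not drawn.

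The IFNγ gene itself fell in both arms. Ifng stood at 2.74 (CTL) and 2.05 (CTL, IgG) on day 3, at 0.45 and 0.36 on day 5 and at -1.55 and -1.62 on day 7. The day 7 levels of both arms were below their day 5 levels, which were below those of day 3. The direct change was -3.98 ± 0.20, a 15.8-fold fall (limma adjusted p = 0.027). Untreated tumours were not well above background for Ifng on either day: CTL arms were at least 112-fold above the detection floor of the untreated array on day 3 and at least 6.75-fold above it on day 7. The floor is the higher of the lowest level well above background on that array and the gene's own level. In the anti-IFNγ arm, Ifng went from 0.23 on day 3 to -3.24 on day 7, so the transcript was also lower on day 7 where the protein was blocked.

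Inducible genes of the pathway were among those that fell, and no fall was called for its receptor chains. Ifngr1, Ifngr2 and Jak1 had direct changes of -0.18, 0.12 and -0.13, none of which passed the test. Irf1, an interferon-induced transcription factor gene, went from 7.64 and 7.75 on day 3 to 4.78 and 5.11 on day 7 (direct change -2.74 ± 0.14, adjusted p = 0.027). Socs1, the feedback inhibitor, went from 5.26 and 5.03 to 2.17 and 2.08 (-3.02 ± 0.12, adjusted p = 0.027). In untreated tumours Socs1 was at -0.83 and -0.50, so its response went from 5.97 to 2.63. Socs2, another inhibitor of cytokine receptors, and Irf2, an IRF1 relative that competes for its sites, also fell, by 1.96 and 1.01. Of the 24 genes of the signalling and feedback list, 8 fell and none rose.

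Of 32 measured IFNγ-induced genes, 28 fell and none rose, and 31 were below 0 in both arms, where 28.6% of all genes were. Their median response was 6.74 on day 3, 4.36 on day 5 and 3.90 on day 7, or 6.64, 4.36 and 3.84 with genes dim in untreated tumours set to their bound. So although the list fell by a median of 2.79, 25 of the 32 genes were still called higher than untreated on day 7. In the single CTL array of day 1 the median response was 1.14. The anti-IFNγ arm had median responses of 1.64 on day 3 and -0.03 on day 7. Gbp2, a guanylate-binding protein that attacks pathogen vacuoles, stood at 7.04 and 7.19 on day 3, 4.43 and 5.24 on day 5, and 2.93 and 3.07 on day 7. Both day 7 levels were below every day 3 and day 5 level of the arms and above the untreated levels of -1.05 and -1.52. Its direct change was -4.11 ± 0.22, a 17.3-fold fall (adjusted p = 0.027). Gbp4 fell by 3.73, and was at least 327-fold above the floor of untreated tumours on day 3 and at least 23.4-fold on day 7. The immunity-related GTPase genes Iigp1, Igtp and Tgtp1 fell by 3.31, 3.12 and 3.10, and were still called higher on day 7, with responses of 5.16, 4.60 and 5.48. Batf2, a myeloid transcription factor gene, fell by 3.37, and Ubd, a ubiquitin-like modifier gene, by 2.81. Irf8, a myeloid lineage factor that IFNγ also induces, fell by 2.76. Cd274, which encodes the checkpoint ligand PD-L1, went from 3.52 and 3.32 to 1.51 and 1.22, a fall of 2.05 ± 0.14 (adjusted p = 0.032), and its day 7 response of 1.09 no longer passed. Apol6, a gene of the apolipoprotein L family, fell most on the list, from 6.56 and 6.11 to 1.81 and 1.21 (-4.82 ± 0.11). The 4 genes of the list that did not pass the direct test were Ido1, Slamf8, Fgl2 and Irg1, the last being the array's older name of Acod1.

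The CXCR3 ligands, chemokines that attract activated T cells, separated by how much remained on day 7. Cxcl9 went from 5.05 and 4.21 on day 3 to 1.64 and 0.96 on day 7, a 10.1-fold fall (-3.33 ± 0.30, adjusted p = 0.039), and on day 7 was still 4.67 above untreated tumours. Cxcl10 went from 5.70 and 5.40 to 2.12 and 2.17, a 10.6-fold fall (-3.40 ± 0.17, adjusted p = 0.027). The untreated tumours had Cxcl10 at 1.33 and 1.66, so the response went from 4.22 to 0.48 (adjusted p on day 7 = 0.296). Cxcl11 went from 1.70 and 0.94 to -2.83 and -3.90 (-4.69 ± 0.30, adjusted p = 0.032), with a day 7 response of 0.63 that did not pass. For Cxcl10 and Cxcl11 the day 7 response did not pass, while for Cxcl9, with a direct change close to that of Cxcl10, it did (adjusted p = 0.024). The difference between these ligands was not tested. Cx3cl1, the ligand of CX3CR1, fell by 2.63. Of 24 measured chemokines these 4 fell, none rose, and 8 kept at least 0.75 of their day 3 response in both arms. Cxcl16 was among the kept: its response was 3.31 on day 3 and 3.60 on day 7, with a direct change of -0.31. The neutrophil attractants Cxcl2 and Cxcl3 had direct changes of 3.10 and 2.04 that did not pass. Both were higher on the CTL, IgG array of day 7 than on the CTL array: Cxcl2 was at -1.17 against -3.54.

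Promoters of some of these genes are shown so that the letters of interferon response motifs can be read in genes with large falls and in class II genes that kept most of their response; H2-Eb1 is in both groups, since it also fell by 1.31. They are RefSeq sequences (GRCm38.p6) from 250 bases before to 50 after the transcription start, 5′ to 3′ on the gene's strand. Capitals mark GAAANNGAAA (ISRE-like, the motif IRF proteins bind), TTCNNNGAA (GAS-like, after the gamma-activated site) and CCAAT, on either strand. Matches may overlap, as in Socs1. The promoters were picked after their matches and values had been seen. The first 4 are of genes with large falls, and the last pair, at chr17:34287774-34288073 and chr17:34305617-34305916, is of class II genes in the kept class. For Irf1 the start shown is the one of 2 listed starts that holds a match.
Cxcl10 (chr5:92348840-92349139, minus strand): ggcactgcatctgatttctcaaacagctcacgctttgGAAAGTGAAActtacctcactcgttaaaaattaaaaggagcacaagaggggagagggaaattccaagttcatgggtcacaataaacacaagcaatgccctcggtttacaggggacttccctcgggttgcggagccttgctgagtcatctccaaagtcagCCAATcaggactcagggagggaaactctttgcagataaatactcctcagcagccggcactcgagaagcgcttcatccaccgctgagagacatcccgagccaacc
Gbp2 (chr3:142620413-142620712, plus strand): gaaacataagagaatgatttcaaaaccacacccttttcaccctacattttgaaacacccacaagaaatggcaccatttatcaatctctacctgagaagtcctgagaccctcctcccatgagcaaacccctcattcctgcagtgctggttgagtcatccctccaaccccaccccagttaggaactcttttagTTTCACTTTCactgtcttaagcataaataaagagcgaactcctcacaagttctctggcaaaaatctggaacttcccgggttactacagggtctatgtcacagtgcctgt
Irf1 (chr11:53769764-53770063, plus strand): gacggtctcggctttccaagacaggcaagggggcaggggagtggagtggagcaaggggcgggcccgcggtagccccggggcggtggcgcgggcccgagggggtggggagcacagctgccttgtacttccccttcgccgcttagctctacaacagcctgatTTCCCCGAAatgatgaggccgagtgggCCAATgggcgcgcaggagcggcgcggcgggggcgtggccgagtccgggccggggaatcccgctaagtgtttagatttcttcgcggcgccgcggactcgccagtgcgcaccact
Socs1 (chr16:10785487-10785786, minus strand): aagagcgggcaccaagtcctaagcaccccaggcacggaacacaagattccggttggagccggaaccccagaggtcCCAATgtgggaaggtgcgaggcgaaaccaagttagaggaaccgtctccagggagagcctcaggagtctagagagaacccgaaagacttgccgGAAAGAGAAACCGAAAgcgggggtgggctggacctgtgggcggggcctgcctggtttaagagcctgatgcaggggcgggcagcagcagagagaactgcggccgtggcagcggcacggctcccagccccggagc
H2-Aa (minus strand): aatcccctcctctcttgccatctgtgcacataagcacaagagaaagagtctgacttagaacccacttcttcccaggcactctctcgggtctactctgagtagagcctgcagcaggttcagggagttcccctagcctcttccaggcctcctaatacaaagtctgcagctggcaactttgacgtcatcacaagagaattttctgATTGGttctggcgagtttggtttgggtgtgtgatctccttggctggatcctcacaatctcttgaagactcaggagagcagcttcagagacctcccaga
H2-Eb1 (plus strand): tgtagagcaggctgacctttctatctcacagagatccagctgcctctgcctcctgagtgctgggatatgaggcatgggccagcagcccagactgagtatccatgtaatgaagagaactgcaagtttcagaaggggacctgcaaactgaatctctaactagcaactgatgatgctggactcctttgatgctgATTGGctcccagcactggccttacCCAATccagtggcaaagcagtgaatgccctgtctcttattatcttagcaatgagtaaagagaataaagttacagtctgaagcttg

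Promoters were matched by symbol for 10761 of the 17376 genes tested. Among them, an ISRE-like or GAS-like match was present in 70 of 192 (36.46%) of the genes that fell directly and in 1253 of 10761 (11.64%) of all genes tested. In all 27025 genes of the table the share was 12.93%. The ISRE-like motif alone was in 25% of the genes that fell and 3.736% of those tested, and the GAS-like motif in 18.75% and 8.568%. By class, the ISRE-like or GAS-like share was 22.15% in genes that faded, 30.82% in genes that lay between, 16.77% in genes that kept their response and 17.65% in the 17 late genes with a promoter. CCAAT was in 6 of the 8 class II genes with a promoter and in 41.06% of the table. It was in 48 of 161 (29.81%) of the genes higher with CTL that kept their response and in 42.19% of the genes that fell. A match describes letters in this window and not a bound site.

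Type I interferon-induced genes, the antiviral set that shares many IRF sites with IFNγ, also fell together and had a smaller response left on day 7. Of 29 measured, 22 fell and none rose, and all 29 were below 0 in both arms. Their median response went from 4.00 on day 3 to 3.37 on day 5 and 1.93 on day 7, and 22 of the 29 were still called higher on day 7. Mx1, an antiviral GTPase, went from 0.47 and 0.26 to -3.59 and -3.37 (-3.84 ± 0.33, adjusted p = 0.035). The arms were at least 27.4-fold above the floor of untreated tumours for Mx1 on day 3, and its day 7 response of 1.29 did not pass. Isg15, a ubiquitin-like antiviral protein gene, went from 5.45 and 5.50 to 2.40 and 3.04 (-2.76 ± 0.20, adjusted p = 0.032). Rsad2, which encodes viperin, went from 3.38 and 3.36 to 1.41 and 1.65, against 1.07 in untreated tumours on day 7, and its day 7 response of 0.46 did not pass. Zbp1, a sensor of left-handed nucleic acids, fell by 3.22 and was still 4.69 above untreated tumours.

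**Figure D2:**
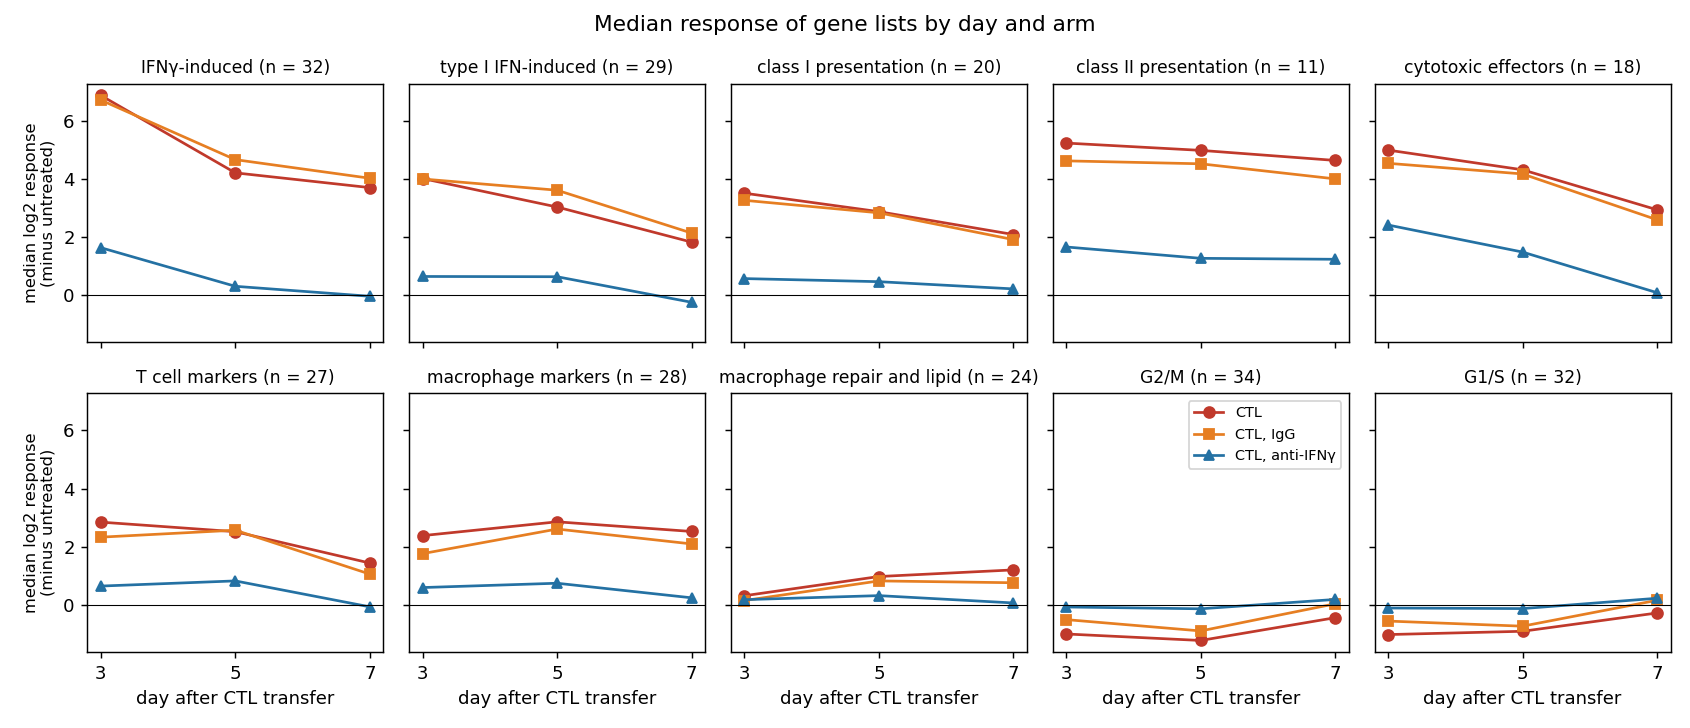
Median response (log2, array minus the untreated array of the same day) of 10 gene lists on days 3, 5 and 7 (x), 1 line an arm, with the number of measured genes in each title. IFNγ-induced genes go from a median of 6.74 over both arms on day 3 to 3.90 on day 7, class II genes from 4.92 to 4.32, macrophage repair and lipid genes start near 0, and cell-cycle genes start below 0 and end near it.

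Antigen presentation held processing genes that fell and classical heavy-chain genes whose changes did not pass. The difference between these groups of genes was not tested. Of 20 measured class I genes, 10 fell, none rose, and the median response went from 3.39 to 1.98. Of the immunoproteasome subunits, Psmb9 went from 7.38 and 7.32 to 5.61 and 5.67 (-1.71 ± 0.12, adjusted p = 0.032), and Psmb8 and Psmb10 fell by 1.34 and 1.65. The peptide transporter gene Tap2 fell by 2.00, the peptide-loading genes Tapbp and Tapbpl by 2.07 and 2.68, and the trimming enzyme gene Erap1 by 1.58. The proteasome activator genes Psme1 and Psme2 fell by 1.35 and 1.20, and the heavy-chain relative H2-T10 by 1.16. Tap1, the other transporter subunit, had -2.41 with an adjusted p of 0.053. The class I heavy chains H2-K1, H2-D1 and H2-T23 had changes that did not pass. H2-K1 was at 7.47 and 7.13 on day 3 and 6.95 and 6.53 on day 7 (-0.56, limma adjusted p = 0.093), with its 4 probes between -0.54 and -1.47. H2-D1 had -0.71 (adjusted p = 0.103) and H2-T23 -1.59 (adjusted p = 0.052). B2m, their light chain, had -0.65 (adjusted p = 0.117). H2-K1, H2-D1 and B2m were still called higher than untreated on day 7, with responses of 2.68, 2.75 and 1.73.

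Of 11 measured MHC class II genes, 4 fell, 9 were below 0 in both arms, 5 kept at least 0.75 of their response in both arms, 4 lay between and 1 faded. On day 7, 9 were called higher than untreated. Ciita, which switches the class II genes on, went from 4.29 and 3.95 on day 3 through 2.89 and 2.65 to 1.18 and 0.72 on day 7, a 9.01-fold fall (-3.17 ± 0.12, adjusted p = 0.027). H2-Ab1, a class II beta chain, was at 5.81 and 5.17 on day 3, 5.90 and 5.43 on day 5, and 4.68 and 4.17 on day 7, a 2.09-fold fall (-1.07 ± 0.11, adjusted p = 0.045). Both arms were level from day 3 to day 5 and lower on day 7. Untreated tumours also had H2-Ab1 lower on day 7, at -0.24 against 0.62, and its response went from 4.87 to 4.67. H2-Eb1, another beta chain, fell by 1.31 ± 0.11 with responses of 4.92 and 4.32. H2-Aa, the alpha chain, had -1.01 ± 0.17 (limma adjusted p = 0.085) with responses of 5.32 and 4.73, and Cd74, the invariant chain, had -0.73 ± 0.13 (adjusted p = 0.092) with responses of 4.65 and 4.40. The peptide-exchange gene H2-DMa fell further, by 2.35, with responses of 6.42 and 4.39. The smaller falls of H2-Ab1 and H2-Eb1 were lost with normexp correction (adjusted p = 0.567 and 0.502) and with the IgG offset left out (0.234 and 0.177).

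**Figure D3:**
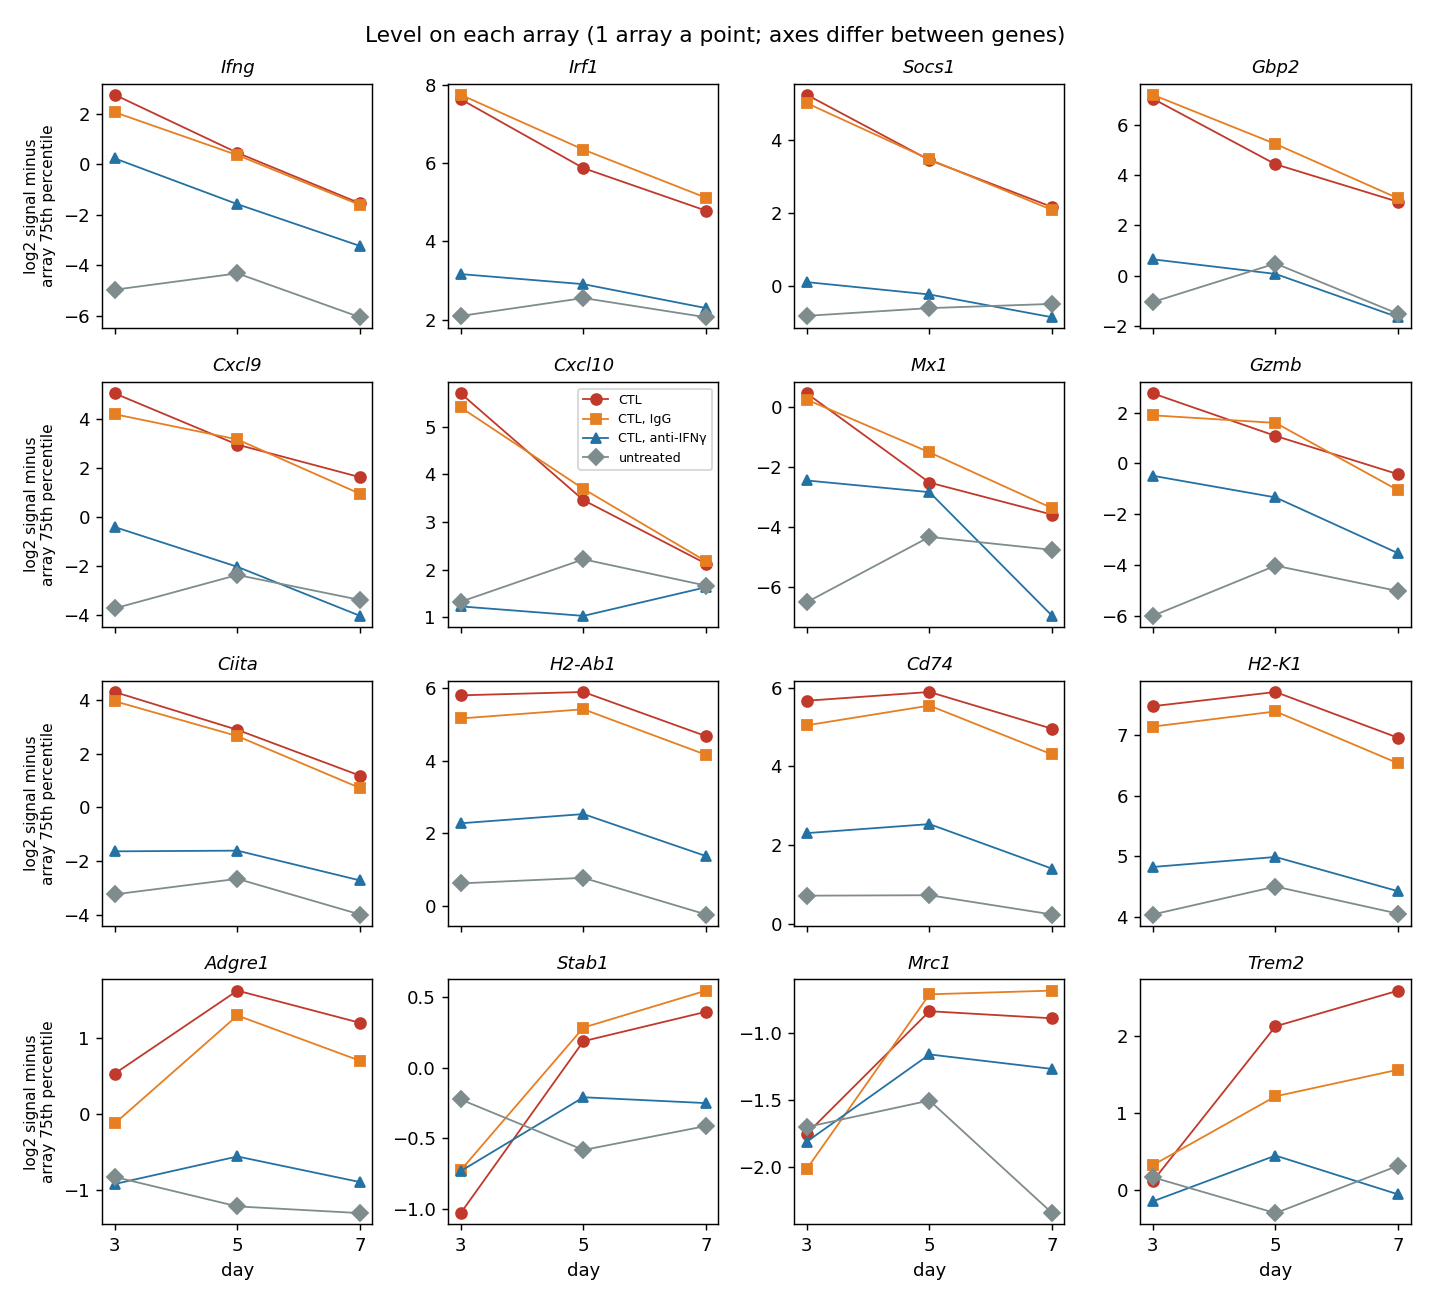
Level (log2 signal minus the array's 75th percentile, y) of 16 genes on each array of days 3, 5 and 7 (x), 1 line for each of CTL, CTL with IgG, CTL with anti-IFNγ and untreated, 1 array a point. Ifng, Irf1, Socs1 and Gbp2 step down on both days in both CTL arms. H2-Ab1 and Cd74 stay more than 4 above untreated tumours on day 7. Stab1, on its brightest probe, crosses from below untreated on day 3 to above it.

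Of 27 measured T cell markers, 2 fell (Lck, the kinase of the T cell receptor, by 1.41, and Tcf7, a transcription factor of memory-like T cells, by 1.12) and none rose. Direct changes were below 0 in both arms in 19 and above 0 in 5, where 28.6% and 46.8% of all genes were. Fewer T cells and less RNA per cell cannot be told apart in whole-tumour RNA. The median response was 2.56 on days 3 and 5 and 1.19 on day 7. As 14, 16 and 12 of the 27 were dim in untreated tumours on days 3, 5 and 7, the medians with those at their bound were 1.82, 2.02 and 1.07. Their summed level was 23.7 (CTL) and 17.3 (CTL, IgG) on day 3, 23.7 and 20.4 on day 5, and 14.3 and 11.2 on day 7, against 6.1 and 7.1 in untreated tumours on days 3 and 7. Both arms' sums were thus lower on day 7 than on days 3 and 5, and above untreated tumours throughout. Cd8a, the CTL coreceptor, was at 0.51 and -0.12 on day 3, 0.50 and 0.29 on day 5, and -0.81 and -1.37 on day 7 (-1.29 ± 0.15, limma adjusted p = 0.054), and was at least 24.4-fold above the floor of untreated tumours on day 3 and at least 9.5-fold on day 7. Cd3d, a T cell receptor chain gene, had -0.95 (adjusted p = 0.057). The defining marker Cd3e did not separate the groups on the 1 probe that passed the background filter, with responses of 0.30 and 0.11. Cd2 and Cd3d were also higher in untreated tumours on day 7 than on day 3, by 3.18 and 2.16, and both were dim there on day 3, so the size of their net changes was not measured. The direct change of Cd2 was -0.76.

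Of 18 measured cytotoxic genes, Ifng and Serpinb9, an inhibitor of granzyme B, fell, none rose, and 12 were called higher than untreated on day 7. By size 13 lay between, 2 faded and 2 were kept, and 14 were dim in untreated tumours on day 3. Gzmb, which encodes granzyme B, went from 2.76 and 1.89 to -0.43 and -1.06 (-3.07 ± 0.39, limma adjusted p = 0.058). It was at least 106-fold above the floor of untreated tumours on day 3 and at least 12.1-fold on day 7. Gzma had -2.09 (adjusted p = 0.082). Prf1, the pore-forming perforin gene, was at -1.03 and -1.81 on day 3 and -1.33 and -2.26 on day 7 (-0.38 ± 0.23), and Gzmc had 0.24 ± 0.44. Untreated tumours were not well above background for either: on days 3 and 7 Prf1 was at least 7.94-fold and at least 5.82-fold above their floor, and Gzmc at least 15.8-fold and at least 17.8-fold. The differences between these genes were not tested. Of 11 measured receptors for T cell cytokines, Il12rb1 and Il15ra fell, by 2.28 and 1.33, and 1 rose. It was Cxcr3, with a direct change of 0.95 (limma adjusted p = 0.0496) and a day 3 response of -1.48. With normexp correction Cxcr3 had 0.77 and an adjusted p of 0.567. Il7r, a receptor gene of longer-lived T cells, had 0.54 and was at least 9.08-fold above the floor of untreated tumours on day 7.

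Death and inflammatory genes that interferon is known to induce were among those that fell. Of 26 measured cell death genes, Casp4, Gsdmd, Casp12, Mlkl and Daxx fell, by 2.50, 2.31, 1.94, 1.49 and 1.42, and none rose. Casp4 and Gsdmd act in pyroptosis and Mlkl in necroptosis. The core apoptosis genes Casp9 and Bax had direct changes of 0.01 and -0.10. Of 13 inflammatory cytokine genes, Tnfsf10 (the death ligand TRAIL), Il18bp (the decoy of IL-18) and Csf1 (the macrophage growth factor) fell, by 2.99, 2.57 and 1.38. Tnf had -0.64 and Il1b -0.45, neither of which passed.

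Of 28 measured macrophage markers, Fcgr4, an activating IgG receptor, was the only one that fell (-1.15 ± 0.13, adjusted p = 0.0496), and none rose. Ly6c1 had the lowest direct change of the list, -2.20, which did not pass (limma adjusted p = 0.086). By size, 14 kept at least 0.75 of their day 3 response in both arms, 8 lay between and 1 faded. Direct changes were below 0 in both arms in 10 of the 28 and above 0 in 13, where 28.6% and 46.8% of all genes were. The median response was 2.09 on day 3, 2.69 on day 5 and 2.31 on day 7, and 20 of 28 were called higher than untreated on day 7. Their summed level was 163 and 118 on day 3, 209 and 197 on day 5 and 167 and 132 on day 7 in the CTL and CTL, IgG arms, against 49.0 to 51.4 in untreated tumours. The peak was thus on day 5 in both arms. Adgre1, which encodes F4/80, was at 0.53 and -0.12 on day 3, 1.62 and 1.29 on day 5, and 1.19 and 0.70 on day 7, with responses of 1.03, 2.66 and 2.24. Csf1r, the receptor of the macrophage growth factor, had responses of 1.49 and 2.37 on days 3 and 7, and C1qa, a complement gene of macrophages, 1.42 and 2.58. The 3 probes of Csf1r differed, with day 3 responses from -0.41 to 1.49 and direct changes from 0.13 to 1.44.

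Of 24 measured genes associated with tissue-repair macrophages, Stab1, a scavenger receptor, rose and none fell. In both arms 11 were above 0 (46.8% of all genes were) and 5 below, and the median direct change was 0.65 in the CTL arm and 0.03 in the CTL, IgG arm. The median response was 0.12, 0.85 and 1.04 on days 3, 5 and 7. Stab1 was at -1.03 and -0.73 on day 3, 0.19 and 0.28 on day 5 and 0.40 and 0.55 on day 7, a 2.55-fold rise (1.35 ± 0.11, adjusted p = 0.035). On day 3 both arms were below the untreated level of -0.23, and on day 7 both were above -0.41, though its day 7 response of 0.89 did not pass. These are values of the brightest of 2 Stab1 probes. The other had a day 3 response of 0.08, so it was not below untreated, and a direct change of 1.46. Mrc1, the mannose receptor, was at -1.75 and -2.01 on day 3, -0.84 and -0.71 on day 5, and -0.89 and -0.69 on day 7 (1.09 ± 0.16, limma adjusted p = 0.071). Untreated tumours had Mrc1 at -1.70 and -2.34, so its day 7 response was 1.55. Trem2, a lipid receptor of macrophages, had 1.86 ± 0.36 (adjusted p = 0.098) and went from 0.11 and 0.32 to 2.60 and 1.57. Pf4 had 1.20 and Spp1 1.15. Fn1 went the other way, with -0.60 (limma adjusted p = 0.145) and its 4 probes between -0.89 and -0.60. In the anti-IFNγ arm Stab1 and Mrc1 went from -0.73 to -0.25 and from -1.81 to -1.27. Arg1, an arginine-degrading enzyme gene that was high from day 3, had -0.28 with responses of 3.58 and 2.55. With normexp correction Stab1 was 0.86 higher with an adjusted p of 0.567.

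Among the other genes that rose, Arhgap22, a Rac regulator, had a change of 1.62 ± 0.10 (adjusted p = 0.032), from -2.41 and -2.80 to -0.77 and -1.20, while untreated tumours stayed at -2.32 and -2.48. Blnk, an adaptor of B cells and myeloid cells, rose by 1.20 and Wdfy4, a gene of cross-presenting dendritic cells, by 0.98. Cebpa, a myeloid transcription factor, rose by 1.43 on its brightest probe and by 0.40 on its other probe. Sgk1 and Sik1, stress-responsive kinases, rose by 1.09 and 1.19, the latter being -0.01 with normexp correction. Of the 44 genes, 24 were not well above background in either arm on day 3. Actrt2, a testis-expressed actin relative, had the largest value of those with an ordinary symbol at 3.76 and was dim in both arms on day 3.

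Proliferation genes had median responses below 0 on day 3 and nearer to 0 on day 7. All 34 G2/M genes and all 32 G1/S genes had direct changes above 0 in both arms, where 46.8% of all genes did. Only Ccne2, a cyclin of S-phase entry, passed the test. The median response of the G1/S list was -0.78 on day 3, -0.84 on day 5 and -0.03 on day 7, and that of the G2/M list was -0.75, -1.03 and -0.16. Ccne2 was at -3.52 and -3.44 on day 3, -2.58 and -2.70 on day 5 and -2.13 and -2.07 on day 7 (1.38 ± 0.11, adjusted p = 0.034). Untreated tumours had Ccne2 at -2.22 and -2.10, so its response of -1.26 on day 3 had an adjusted p of 0.990 on day 7. Ccne1, the other cyclin E, had 1.04 ± 0.13 (limma adjusted p = 0.058), Cdc6, a replication licensing factor, 1.00 ± 0.11 (adjusted p = 0.052), and Rrm2, a subunit of ribonucleotide reductase, 1.26. On day 3, 11 G1/S and 8 G2/M genes had been called lower than untreated, and on day 7 none was. The medians were above 0 under every alternative run for them, from 0.59 to 0.81 for G1/S and from 0.39 to 0.62 for G2/M, while Ccne2 itself had -0.09 with normexp correction. The anti-IFNγ arm had median direct changes of 0.25 and 0.24 for the same lists.

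More widely, of the 703 genes called lower than untreated on day 3, 20 rose directly, none fell, and 77 were still called lower on day 7, with medians of -1.14, -0.87 and -0.54 on days 3, 5 and 7. Endothelial genes had a median response of -1.03 on day 3 and -0.98 on day 7. Of 23, 11 were called lower on day 3 and 8 were called lower on day 7. Direct changes were above 0 in both arms in 12 and below 0 in 7, where 46.8% and 28.6% of all genes were. Aplnr, the apelin receptor gene, rose by 1.28 (-0.49 with normexp correction). The defining markers Pecam1 and Cdh5 had direct changes of 1.05 and -0.34, which did not pass. Flt1 and Cldn5 had -1.04 and -0.70, which did not pass either.

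Each gene was also put in a class by size alone, with no test. Responders were at least 1 from untreated in both arms on day 3. They faded where at most 0.5 of that response was left on day 7 in both arms, and were kept where at least 0.75 was. Among genes higher with CTL, 479 faded (2.76%), 238 were kept (1.37%) and 430 lay between. Among genes lower with CTL, 285 faded (1.64%), 124 were kept (0.714%) and 281 lay between. Late genes, under 1 on day 3 and at least 1 on day 7 with at least 1 between, numbered 29 upwards (0.167%) and 133 downwards (0.765%). The faded genes had median responses of 2.06, 1.28 and 0.37 on days 3, 5 and 7, and the kept genes 2.33, 2.93 and 2.46. The 133 late downward genes had a median change of 0.06 in the arms and of 2.20 in untreated tumours, so the untreated array of day 7 set their class. With the untreated arrays of days 3 and 5 in place of that of day 7, which are on other slides, there were 15 late downward, 57 late upward and 300 faded upward genes.

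**Figure D4:**
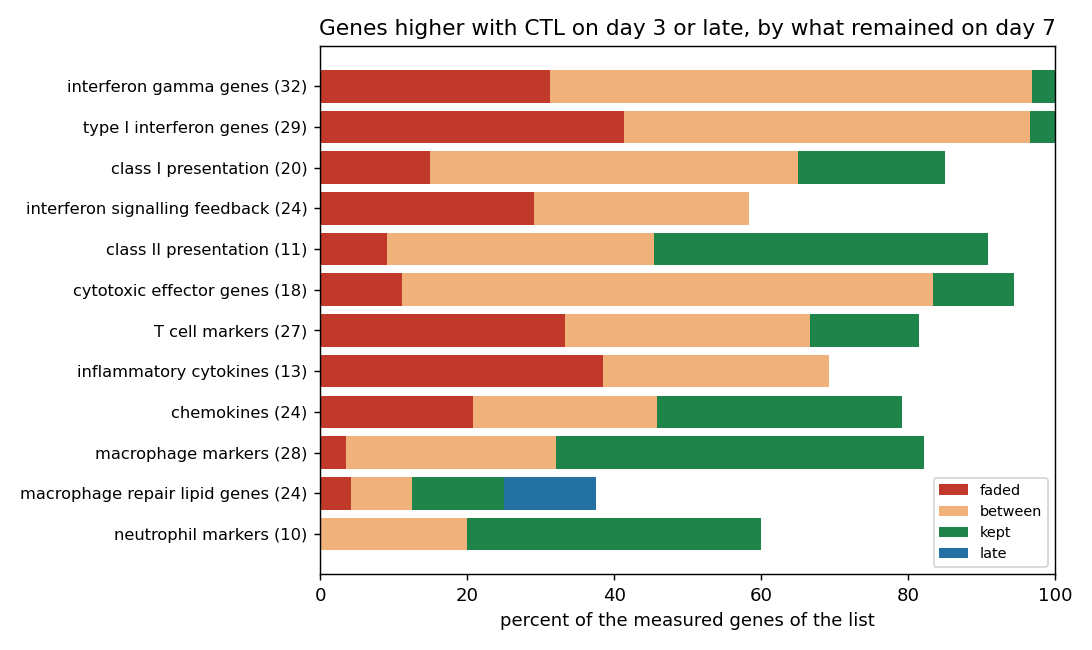
Percent of the measured genes of 12 lists (number in parentheses) that were higher with CTL on day 3 and faded, lay between or were kept on day 7, or were late (bars stacked from 0). Faded and between genes make up 31 of 32 IFNγ-induced genes, kept genes make up 14 of 28 macrophage markers, and the 3 late genes of these lists are repair and lipid genes.

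The rule for kept genes named 10. Of these, Psmb8, H2-Aa, H2-Ab1, Cd74 and H2-Eb1 were measured in untreated tumours, with day 7 responses of 5.17, 4.73, 4.67, 4.40 and 4.32. The others, dim in untreated tumours on day 7 and so without an order, were Clec4e (at least 20.2-fold above the floor), Gzmc, Fgl2 (at least 9.62-fold), Cd8a and Prf1. Their class rests on levels of untreated tumours below background. Fgl2, which encodes an immunoregulatory fibrinogen-like protein, had a direct change of -1.19 that did not pass, and was dim in untreated tumours on both days. Clec4e, the receptor Mincle of activated myeloid cells, had -0.30 ± 0.44. The 10 largest late changes were all downward, Zfp533, Gal3st4, Hbq1a, Alas2, Cplx4, Tcf23, Ngp, Myh1, Ntf3 and Pcsk5, and 9 of them were higher in untreated tumours on day 7 than on day 3 by 3.21 or more, and Myh1 by 0.87. Except for Alas2 and, on day 3 in 1 arm, Myh1, none of these was well above background in the CTL arms on either day. Alas2, the haem synthesis enzyme of red cell precursors, had 4.21 there. The 2 probes of Pcsk5 disagreed in sign. Of the 29 late upward genes, Klhl6 and Pdcd1lg2 had direct changes below 0, of -0.60 and -2.15, since untreated tumours were lower by more.

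Relative to the untreated arrays, no gene passed in the net change in either direction (0% of 17376). The smallest adjusted p in limma was 0.0667, and 2628 genes had an unadjusted p under 0.05, against 4279 for the direct change. Each day has a single untreated array. The rule named 10 genes of the lowest fitted net change, given without a call. Apol6 (-5.39) and Prph (-4.61) were measured in untreated tumours on both days. Apol10b, Trim12c, Ctsw, Mx1, Ccdc36, Art1, Cxcl11 and Ifi44 were dim there on day 3, so the size and order of their net changes were not measured. Their direct changes were -2.85, -2.31, -0.79, -3.84, -4.42, -3.40, -4.69 and -3.28, of which all but that of Ctsw passed. Ccdc36 and Art1 were also dim in both arms on day 7, so their falls were at least 13.1-fold and at least 4.21-fold. Untreated tumours were higher on day 7 by 3.77, 4.23 and 5.04 in Apol10b, Trim12c and Ctsw, and by 0.57 in Apol6 and Cxcl11. Prph, which encodes peripherin, an intermediate filament of neurons, had the largest direct change of all named genes, from 5.02 and 4.69 on day 3 to 0.04 and -0.53 on day 7 (-5.10 ± 0.43, adjusted p = 0.035). Its untreated levels were -3.54 and -4.02. Of the 10 genes named for the highest net change, Myo7b (3.34), Centg3 (3.01) and Ripor2 (2.84) were measured on all of these arrays, and Hkdc1 (2.53) on all but 1 arm of day 3. Untreated tumours were lower on day 7 by 2.99, 2.37 and 2.55 in the first 3 of these. The others, Dhrs9, Oog1, Zfp936, Actrt2, Lce1i and Mapk8ip2, were dim in both arms on day 3, and of the 10 only Actrt2 passed the direct test. With the untreated array of day 7 replaced by those of days 3 and 5, 63 genes fell and 2 rose in the net change. With the anti-IFNγ array of the same day as reference in place of the untreated one, none passed.

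Neutrophil markers had 1 array that stood apart, that of CTL with IgG on day 7. Their summed level was 4.5 and 3.4 on day 3, 12.5 and 7.5 on day 5, and 5.1 and 54.9 on day 7 in the CTL and CTL, IgG arms. S100a9, a calcium-binding protein of neutrophils, was at 0.08 in both arms on day 3, 2.57 and 0.94 on day 5, and 0.28 and 5.56 on day 7. The CTL, IgG array of day 7 was thus apart from the CTL array of that day, and the direct change of 2.84 ± 1.83 did not pass. A few genes fell without a called response on day 3. Nupr1 and Chac1, genes of the stress response to amino acid shortage, went from 4.99 and 4.65 to 2.39 and 2.30 and from 3.69 and 3.45 to 1.93 and 2.01, and their untreated levels were 3.81 and 3.68 on day 3 and 3.32 and 3.18 on day 7. Psmb11, the thymus-type proteasome subunit gene, fell by 3.28 in the arms and was lower by 3.88 in untreated tumours.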

How the data were processed

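RNA of pooled tumours was hybridised to 14 one-colour Agilent arrays on 4 slides, each slide holding 1 day. The authors deposited scanner files from Feature Extraction 9.5.3.1, per the file headers, with annotation on build mm8. The processed intensity deposited by the authors was background-corrected by that software, per the file headers, and is on a linear scale. A deposited value table gives log2 values of the same arrays, each array off from the values used here by 1 constant between 0.033 and 0.073. From each array's log2 intensity the 75th percentile over non-control spots was subtracted. Control spots and outlier spots were left out, spots of a probe were averaged, and the probe brightest over the arrays stood for a gene. Of 41174 probes, 24496 were named by accession and 16678 kept the file's name. Genes well above background on at least 2 of 9 arrays (17376) were fitted with limma 3.58.1 in R 4.3.3 (lmFit, eBayes) over the CTL, CTL with IgG and untreated arrays of days 3, 5 and 7. The fit had a mean for each day and treatment and an offset of the IgG arm, which pairs the arms. It left 2 residual degrees of freedom. Adjusted p-values are two-sided and Benjamini-Hochberg adjusted over all genes tested. The fit was tested on simulated data. The anti-IFNγ arrays and the day 1 arrays entered no fit and are given as values.

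The gene lists, comparisons and named genes were chosen with earlier results of these data known. The rule named the 10 lowest and 10 highest net changes, the 10 largest kept and late responses, the genes of each list with the smallest p for the net change, and genes of the study's subject. The other genes named, and the promoters, were chosen after their values were seen. Alternatives were another background correction, normalization, dim-probe filter, probe rule, reference, responder limit, the authors' table, no offset and arrays left out. Some single genes are not reported here.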

Additional observations from a re-analysis of the deposited data

Results flagged for a closer look

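In 7 named genes, both CTL arms moved one way from day 3 to day 7 and the single anti-IFNγ arm moved the other way by at least 0.5 on the log2 scale. That difference was not tested, since the anti-IFNγ arm has 1 array a day, and day and slide cannot be told apart. Cxcl11, the chemokine gene, changed by -4.53 (CTL) and -4.84 (CTL, IgG) in the arms, by 0.73 in the anti-IFNγ arm and by 0.57 in untreated tumours. Gbp8, a guanylate-binding protein gene, changed by -3.68 and -3.69 in the arms, by 1.33 with anti-IFNγ and by 0.71 in untreated tumours. Apol10b, of the apolipoprotein L family, changed by -2.89 and -2.81 in the arms, by 2.16 with anti-IFNγ and by 3.77 in untreated tumours. Art1, an ADP-ribosyltransferase gene, changed by -3.46 and -3.34 in the arms, by 0.68 with anti-IFNγ and by 1.92 in untreated tumours. Sema3e, a guidance ligand gene, changed by -3.36 and -2.33 in the arms, by 0.98 with anti-IFNγ and by -0.15 in untreated tumours. Wdfy4 changed by 0.90 and 1.06 in the arms, by -0.58 with anti-IFNγ and by -0.21 in untreated tumours. H2-T10, the class I relative, changed by -1.12 and -1.20 in the arms, by 0.51 with anti-IFNγ and by 0.06 in untreated tumours.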

How the results depend on the processing

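Against 334 genes that passed in the direct change, quantile normalization gave 231, the mean of all probes 256 and the values deposited by the authors 328, but normexp background correction gave 56, no filter on dim probes 0, and the filter at 6 of 9 arrays 1209, of which 707 (58.48%) were lower against 86.83% of the 334. Without day 5, from the 4 arrays alone, and with the untreated change of the same slide taken off, 0 passed. With 1 array left out, direct counts ranged from 0 to 0, those of day 3 responses from 331 to 1204 (1752 in all) and those of day 7 responses from 0 to 345 (599 in all). The arms were paired by the IgG offset. With no replicate block 270 genes passed in the direct change, 2 in the net change, 1072 in the day 3 response and 334 in the day 7 response. For the net change, where 0 passed, the filter at 6 of 9 arrays gave 196, and replacing the untreated array of day 7 gave 65 (chosen after seeing the data, as was the anti-IFNγ reference). The day 3 count was 335 with normexp, 436 with no filter and 2810 with the filter at 6 of 9. The day 7 count was 100, 0 and 1078 in that order, 345 without day 5, and 1823 with the untreated array of day 7 replaced.

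The classes moved with their limit. With a responder limit of 2 there were 203 faded, 253 between, 124 kept and 12 late genes upward, and 76, 39, 20 and 53 downward. A limit of 0.58 gave 889 faded and 72 late upward, and 815 faded, 874 between, 338 kept and 255 late downward. With the anti-IFNγ array as reference there were 311 faded, 364 kept and 234 late upward, and 141 between, 37 kept and 51 late downward. Normexp gave 287 faded, 252 between, 94 kept and 2 late upward, and 48, 67, 21 and 14 downward. Replacing the untreated array of day 7 gave 300 faded and 57 late upward and 15 late downward. Normexp moved the median direct change of all genes from 0.09 to -0.10. It turned the sign of 6 named genes that had passed, none of which then passed: Ccne2 (adjusted p = 0.917), Aplnr (0.577), Col5a2 (0.57), Catsperg2 (0.756), Samd5 (0.746) and Sik1 (0.991). Named genes that had not passed also changed sign, among them Oog1 (2.30 to -0.38), Zfp936 (0.86 to -0.49), Centg3 (0.65 to -0.30) and Mapk8ip2 (1.22 to -0.34). The causes were not tested. Of the genes that fell, 53 were shared with the normexp calls and 281 with those from the authors' table. Signal over background limits genes dim in untreated tumours to bounds.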
